A study of Mus musculus with 15 samples.

Results

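The collagen genes described here are those of the cecum whose symbol is Col, a number, the letter a and a number. Their FPKM (fragments per kilobase of gene, divided by a scaling factor of each library) was also above 0 in at least 1 mouse. This rule gave 42 of the 24279 genes above 0. A further 2 collagen genes, Col9a1 and Col10a1, were listed at 0 in every mouse. Of the 42 genes, 11 encode fibrillar collagens, 8 encode collagens of basement membranes, and 23 encode other types.

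Messenger RNA of the cecum was sequenced in 15 wild-type C57BL/6 mice whose labels give an age of 20 weeks. By the study's methods, which give the age at the start of treatment, the mice were younger than this at collection. For 30 days, 7 mice were gavaged 2 times daily with ampicillin, vancomycin, neomycin, metronidazole and amphotericin B to deplete the gut microbiome (antibiotic-induced microbiome depletion, AIMD). The 8 mice of the Vehicle group were gavaged with water on the same schedule. Per the study's methods all mice were male and several shared a cage, and the whole emptied cecal wall was extracted, so every value averages epithelium, connective tissue, muscle, nerve and immune cells. The comparison asks how the transcripts that encode the collagen matrix of this wall differed between the antibiotic-treated and the water-treated mice. Loss of microbes and direct effects of the drugs on the mice cannot be told apart in this design.

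Collagens are trimers of chains that wind around each other through long runs of Gly-X-Y repeats. Fibrillar collagens assemble into the tensile fibers of the submucosa, type IV collagen forms the mesh of basement membranes beneath the epithelium and around vessels and muscle, and type VI collagen forms beaded filaments between them. Fibroblasts and smooth muscle cells make most of the collagen of the gut wall. Collagen chains are hydroxylated and folded in the endoplasmic reticulum, trimmed after secretion, and cross-linked outside the cell.

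Reads assigned to genes ranged from 8679666 to 18108568 per AIMD mouse (median 11244627) and from 4372401 to 14405933 per Vehicle mouse (median 7855355). Vehicle replicate 8 had the fewest reads and stood apart from the other mice. Its summed FPKM over 10 smooth muscle markers was 3080, against 527 to 1401 in the other Vehicle mice and 218 to 826 in the AIMD mice. Its sum over 10 enteric neuron and glia markers was 65.1, against at most 20.6 in any other Vehicle mouse. Clock genes also split the mice. In AIMD replicates 1 to 3 and Vehicle replicates 1 to 4 the mean log2 level of the morning arm of the clock exceeded that of the evening arm by 2.03 to 2.54, and in the other 8 mice this difference was −0.71 to 0.38. The study's own model had time of sacrifice as a factor beside treatment. The labels do not give it, so the limma model used here has treatment alone. Both divisions include mice of each treatment. Values without Vehicle replicate 8 are given beside many of the results, and values within each clock division beside a few.

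Collagen transcripts were low in the cecum, and type III, type VI, type I and type IV chains led them. The highest mean FPKM over the 15 mice belonged to Col3a1, Col6a1, Col1a2, Col4a1 and Col1a1, in that order. Of the 42 genes, 17 reached an FPKM of 0.5 in at least 7 mice and were tested: Col1a1, Col1a2, Col3a1, Col5a1 and Col5a2 among the fibrillar genes, Col4a1, Col4a2, Col4a5, Col15a1 and Col18a1 among the basement membrane genes, and Col6a1, Col6a2, Col6a3, Col6a4, Col8a2, Col12a1 and Col16a1 among the others. The summed FPKM of all 42 genes was 36.5 to 68.3 in AIMD mice and 32.5 to 96.3 in Vehicle mice. Without Vehicle replicate 8 the highest Vehicle sum was 54.9. The sums of the groups overlapped in each class, with 15.3 to 34.5 against 11.2 to 35.3 for fibrillar genes, 8.63 to 13.8 against 8.06 to 21.2 for basement membrane genes, and 11.7 to 20.0 against 10.7 to 39.8 for other collagens (AIMD against Vehicle).

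**Figure D1:**
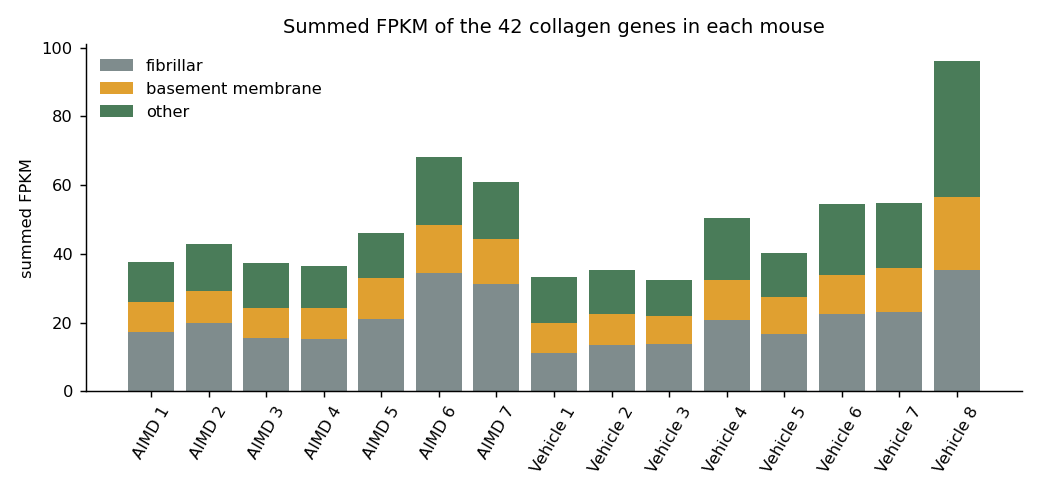
Summed FPKM (vertical axis) of the 42 collagen genes in each of the 15 mice, stacked by class. Vehicle replicate 8 reached 96.3, and the other mice lay between 32.5 and 68.3.

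The share of fibrillar transcripts within the collagen total was higher on the AIMD side. It was 41.7% to 51.1% in AIMD mice and 33.7% to 42.4% in Vehicle mice, so that only the lowest AIMD and the highest Vehicle mice overlapped. This share was described and not tested, and Col3a1 is its largest part in the AIMD mice.

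Only 1 of the 17 tested collagen genes passed the threshold. Col3a1, the chain of type III collagen that forms the fine reticular fibers of distensible organs, rose in AIMD mice. None of the 17 fell by this limma fit or by the rank-sum test, 1 had a negative change at an unadjusted p under 0.05 (Col16a1), and that gene was called lower by limma voom on the reads of the same genes. In the same fit 19.4% of all 11971 genes passed in the higher direction and 16.6% in the lower, 36.0% in all. The fit was limma on log2(FPKM + 0.5), two-sided, with Benjamini–Hochberg adjustment over all genes and a threshold of 0.05. The median log2 fold change of the 17 genes was −0.08, and that of all genes tested was 0.01. No tested collagen changed by 1 or more on this log2 scale, which 795 of all genes did. An FPKM is divided by gene length, and on the log2(FPKM + 0.5) scale the change of genes with low FPKM is understated. In such whole-tissue RNA, fewer cells of a type and less RNA per cell cannot be told apart.

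**Figure D2:**
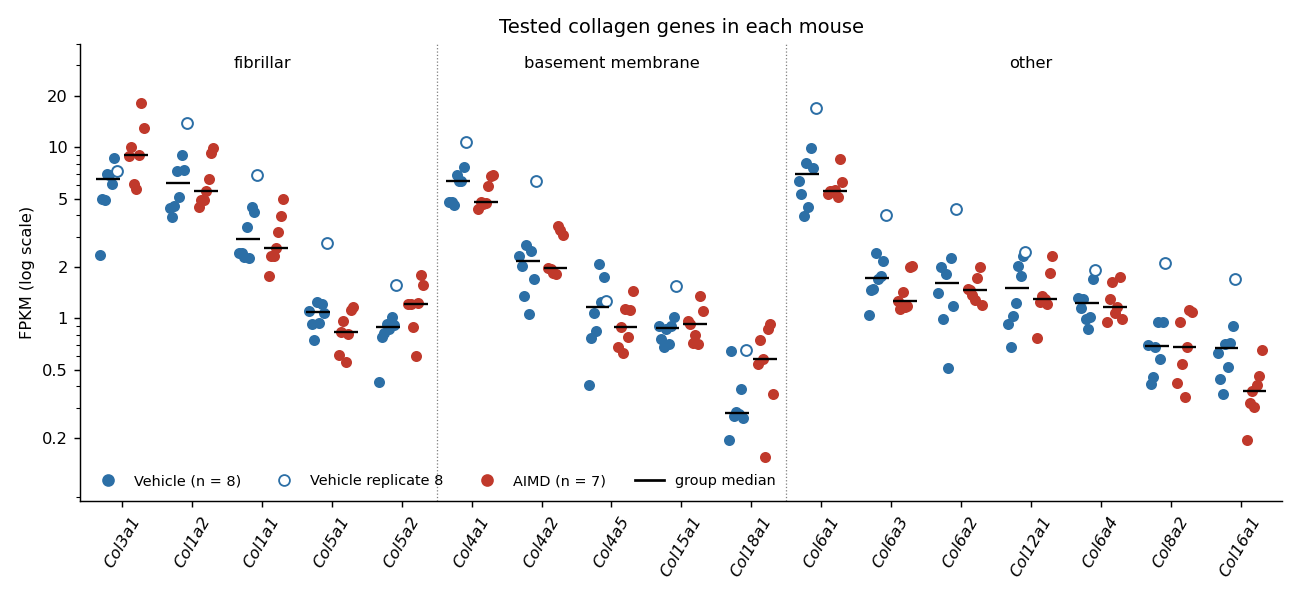
FPKM (log scale) of the 17 tested collagen genes in each mouse, by class, with the group medians as bars. Col3a1 lay between 5.68 and 18.0 in AIMD mice and between 2.34 and 8.66 in Vehicle mice, and open circles show Vehicle replicate 8.

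Col3a1 (ENSMUSG00000026043.18, chromosome 1, positions 45311538 to 45349706 of GRCm38, plus strand) had an FPKM of 8.84, 10.02, 6.06, 5.68, 9.03, 18.0 and 13.0 in AIMD replicates 1 to 7. In Vehicle replicates 1 to 8 it had 2.34, 4.94, 4.92, 6.96, 6.85, 6.10, 8.66 and 7.26. The 5 highest AIMD mice lay above every Vehicle mouse, and the other two lay inside the Vehicle range. These values rested on 464 to 2323 reads per AIMD mouse and 169 to 760 per Vehicle mouse. The means were 10.1 ± 4.27 FPKM (SD, n = 7) and 6.01 ± 1.93 (SD, n = 8), and the log2 fold change was 0.68 (SE 0.25, adjusted p = 0.0426 in limma).

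The call for Col3a1 was near the threshold. The adjusted p ranged from 0.0209 to 0.0994 when single mice were left out, and leaving out any of AIMD replicates 1, 2, 5, 6 and 7 or Vehicle replicates 1, 2, 3 and 6 took it past 0.05, while the log2 fold change stayed between 0.52 and 0.80. Without Vehicle replicate 8 the log2 fold change was 0.73 (adjusted p = 0.0358). Within the clock divisions the difference was 0.79 among mice with high morning-arm levels and 0.52 among the rest. By an exact rank-sum test adjusted over all genes the p was 0.0941.

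Col5a2, the gene next to Col3a1 on chromosome 1, encodes a chain of type V collagen, which sits inside type I fibrils and limits their width. Its FPKM was 0.601 to 1.78 in AIMD mice (median 1.22) and 0.426 to 1.57 in Vehicle mice (median 0.888). The groups overlapped, and the log2 fold change of 0.27 (SE 0.17, adjusted p = 0.222 in limma) did not pass. Its partner chain Col5a1 pointed the other way, with 0.552 to 1.16 (median 0.825) in AIMD mice and 0.747 to 2.75 (median 1.09) in Vehicle mice, and a log2 fold change of −0.32 (SE 0.18, adjusted p = 0.165). Without Vehicle replicate 8 the log2 fold change was 0.36 for Col5a2 and −0.18 for Col5a1.

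The type I chains did not pass the test. Col1a1 had an FPKM of 1.75 to 4.96 (median 2.58) in AIMD mice and 2.24 to 6.82 (median 2.91) in Vehicle mice, a log2 fold change of −0.17 (SE 0.23, adjusted p = 0.586). Without Vehicle replicate 8 this fold change was −0.03. Col1a2 had 4.48 to 9.93 (median 5.53) and 3.91 to 13.8 (median 6.20), a log2 fold change of −0.03 (SE 0.24, adjusted p = 0.928), which became 0.12 without Vehicle replicate 8. The groups overlapped across most of their ranges for both chains.

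The upstream sequences of Col3a1, Col5a1 and Col6a5 are shown as the start regions of a chain that rose, of a type V chain that did not pass, and of the low type VI chain described further on. They are the 250 bases before the annotated start, 5′ to 3′ on the strand of the gene, from RefSeq on GRCm38.p6. They lie at chr1:45311288-45311537 (plus strand), chr2:27886175-27886424 (plus strand) and chr9:105960644-105960893 (minus strand). Capitals mark TATAAA or CCAAT, searched on both strands.
Col3a1: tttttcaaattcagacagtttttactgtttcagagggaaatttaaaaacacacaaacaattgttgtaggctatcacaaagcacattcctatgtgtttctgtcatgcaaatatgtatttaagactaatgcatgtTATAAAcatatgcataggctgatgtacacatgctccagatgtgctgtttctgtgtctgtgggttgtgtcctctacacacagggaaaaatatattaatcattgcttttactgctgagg
Col5a1: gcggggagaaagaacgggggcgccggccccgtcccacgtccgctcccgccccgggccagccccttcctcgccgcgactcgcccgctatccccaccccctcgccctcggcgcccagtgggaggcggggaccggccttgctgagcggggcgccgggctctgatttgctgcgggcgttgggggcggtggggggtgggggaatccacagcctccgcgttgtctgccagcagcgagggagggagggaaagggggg
Col6a5: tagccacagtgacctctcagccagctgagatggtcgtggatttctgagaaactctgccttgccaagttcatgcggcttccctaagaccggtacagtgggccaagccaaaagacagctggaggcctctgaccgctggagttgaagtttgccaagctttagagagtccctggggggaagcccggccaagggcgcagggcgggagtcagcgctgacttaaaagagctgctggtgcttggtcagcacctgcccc

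The Col3a1 window held 1 TATAAA, which began 117 bases before the start, and no CCAAT. The windows of Col5a1 and Col6a5 held neither. Such windows were found for 33 of the 42 collagen genes, as 35 windows, of which 4 held TATAAA (11.4%) and 12 held CCAAT (34.3%). Over all 32851 promoter windows of this length the shares were 12.4% and 33.9%. G and C made up 35.2% of the Col3a1 window, the lowest value among the collagen windows, 58.8% of the Col6a5 window and 76.4% of the Col5a1 window, with a median of 59.6% over the collagen windows and 52.4% over all windows.

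Type IV collagen is assembled mostly from Col4a1 and Col4a2, whose genes lie head to head on chromosome 8. Col4a1 had an FPKM of 4.35 to 6.86 (median 4.79) in AIMD mice and 4.61 to 10.7 (median 6.34) in Vehicle mice, a log2 fold change of −0.21 (SE 0.16, adjusted p = 0.339 in limma). Col4a2 had 1.81 to 3.43 (median 1.95) and 1.05 to 6.32 (median 2.16), a log2 fold change of 0.10 (SE 0.25, adjusted p = 0.777). For Col4a2 the 6.32 of Vehicle replicate 8 stood far above the 2.66 of the next Vehicle mouse. Without Vehicle replicate 8 the log2 fold change was −0.10 for Col4a1 and 0.29 for Col4a2. Neither chain separated the groups.

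Among the other basement membrane genes, Col4a5, a chain of a further type IV trimer, had a log2 fold change of −0.16 (adjusted p = 0.543). Col15a1 and Col18a1 encode proteoglycan collagens that carry endostatin-type fragments. Col15a1 was at 0.704 to 1.34 FPKM in AIMD mice and 0.680 to 1.55 in Vehicle mice. Col18a1 was at 0.154 to 0.921 (median 0.578) and 0.194 to 0.651 (median 0.279), a log2 fold change of 0.31 (SE 0.17, adjusted p = 0.172), and passed when AIMD replicate 4 was left out (0.43, adjusted p = 0.0415), which was 1 of the 8 fits without a single mouse in which it reached the FPKM minimum. The 3 remaining type IV genes were below the test's minimum. Col4a6 reached 0.315 FPKM in AIMD mice and 0.602 in Vehicle mice, Col4a4 reached 0.0287 and 0.172, and Col4a3 reached 0.0149 and 0.0271.

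The type VI chains were the most abundant of the remaining collagens. Col6a1 had an FPKM of 5.12 to 8.51 (median 5.57) in AIMD mice and 3.94 to 16.8 (median 6.94) in Vehicle mice, a log2 fold change of −0.24 (SE 0.23, adjusted p = 0.444 in limma). Col6a3 had 1.13 to 2.02 (median 1.26) and 1.05 to 3.99 (median 1.73), a log2 fold change of −0.31 (SE 0.19, adjusted p = 0.215). Without Vehicle replicate 8 the log2 fold change was −0.07 for Col6a1 and −0.18 for Col6a3. Col6a2, which completes the common trimer, had 1.20 to 1.98 and 0.512 to 4.34, with a log2 fold change of −0.08 (adjusted p = 0.818) that became 0.09 without Vehicle replicate 8. Col6a4 had 0.953 to 1.75 and 0.863 to 1.90, a log2 fold change of −0.01 (adjusted p = 0.973).

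All 7 tested genes of this class had negative log2 fold changes and none passed the threshold. Without Vehicle replicate 8, 4 of the 6 that still reached the FPKM minimum were positive. Col12a1 and Col16a1 encode collagens that attach to the surface of fibrils. Col12a1 was at 0.763 to 2.31 FPKM in AIMD mice and 0.675 to 2.43 in Vehicle mice, a log2 fold change of −0.05 (adjusted p = 0.867). Col16a1 came nearest to the threshold from below, with 0.195 to 0.656 (median 0.375) against 0.360 to 1.69 (median 0.665) and a log2 fold change of −0.44 (SE 0.18, adjusted p = 0.0578 in limma). With the clock score in the model, centred within the groups, Col16a1 was called lower at the same fold change (adjusted p = 0.0237). Col8a2, a short chain that forms networks around vessels, was at 0.348 to 1.12 and 0.412 to 2.09, a log2 fold change of −0.09 (adjusted p = 0.754). Without Vehicle replicate 8 the values of Col8a2 and Col12a1 became 0.05 and 0.03.

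Vehicle replicate 8 had the highest FPKM of all 15 mice in 13 of the 17 tested genes and in 25 of all 42. Col3a1 was an exception, where Vehicle replicate 7 led its group. AIMD replicate 6 led the AIMD group in 8 of the 17 tested genes and AIMD replicate 7 in 8.

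Genes too low for the FPKM minimum were compared from reads. The deposited FPKM were whole multiples of 1 read for 24278 of 24279 genes, which gave the reads back. With limma voom on the 12858 genes with at least 10 reads in at least 7 mice, a comparison chosen after the data were seen, 25 collagen genes were tested. Of these 2 were higher in AIMD mice, Col3a1 and Col6a5, and 3 were lower, Col16a1, Col23a1 and Col25a1. Over all genes of that fit 18.8% were higher and 17.2% lower. Col3a1 had a log2 fold change of 0.74 (SE 0.26, adjusted p = 0.0331).

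**Figure D3:**
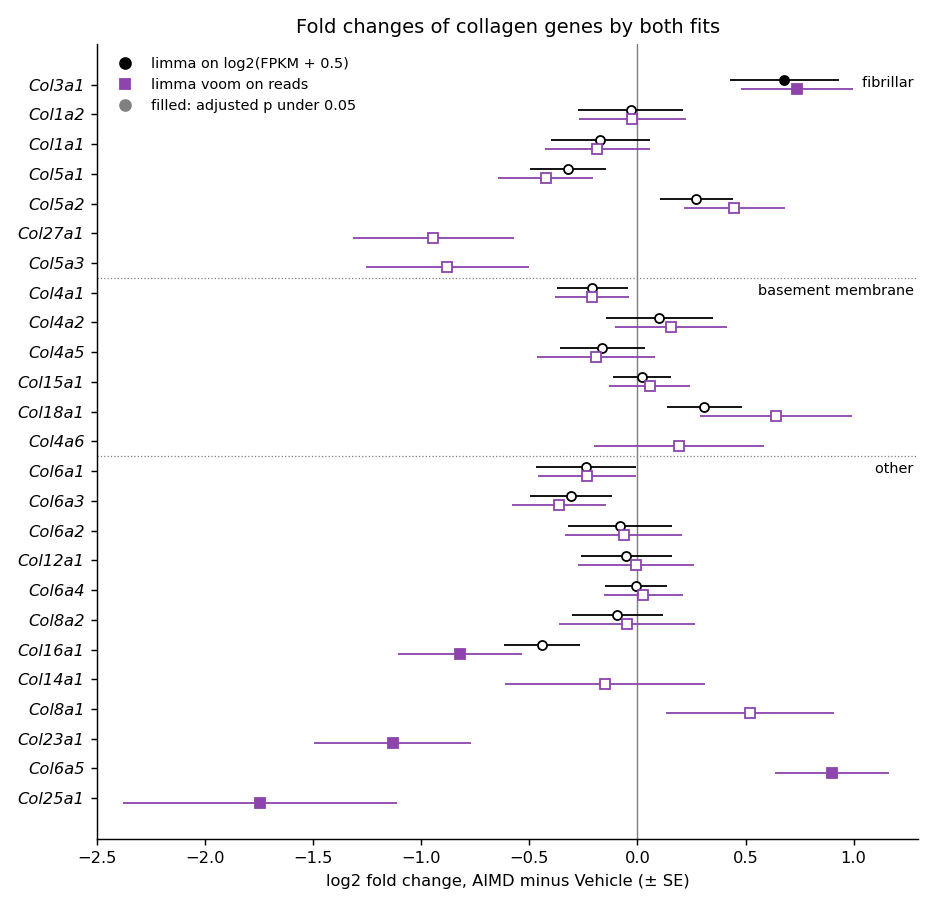
Log2 fold changes (AIMD minus Vehicle, ± SE) of 25 collagen genes by limma on log2(FPKM + 0.5), circles, and by limma voom on reads, squares. Filled symbols have an adjusted p under 0.05: Col3a1 by both fits, and Col6a5, Col16a1, Col23a1 and Col25a1 by the read fit.

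Col6a5 (chromosome 9, positions 105856078 to 105960643 of GRCm38, minus strand) encodes a type VI chain of restricted expression. It had 38, 37, 40, 14, 32, 53 and 44 reads in AIMD replicates 1 to 7 and 6, 16, 8, 15, 7, 15, 16 and 8 in Vehicle replicates 1 to 8. Its FPKM was 0.179 to 0.429 (median 0.253) in AIMD mice and 0.0868 to 0.260 (median 0.144) in Vehicle mice. The lower AIMD mice overlapped the upper Vehicle mice. The log2 fold change from reads was 0.90 (SE 0.26, adjusted p = 0.0119 in limma voom) and 0.95 (adjusted p = 0.00961) without Vehicle replicate 8. Of the 50-base windows of its transcripts, 3.42% also occur in other genes.

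Col16a1 had 17 to 51 reads in AIMD mice and 18 to 53 in Vehicle mice, whose libraries were mostly smaller. Its log2 fold change from reads was −0.82 (SE 0.29, adjusted p = 0.0326 in limma voom) and −0.69 (adjusted p = 0.0439) without Vehicle replicate 8. Col23a1 and Col25a1 encode collagens anchored in the cell membrane. Col23a1 was at 0.0998 to 0.166 FPKM in AIMD mice and 0.101 to 0.996 (median 0.299) in Vehicle mice, with a log2 fold change of −1.13 (SE 0.36, adjusted p = 0.0204) and −0.95 (adjusted p = 0.0223) without Vehicle replicate 8.

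Col25a1 rested on the fewest reads. It had 12, 5, 8, 11, 0, 4 and 7 reads in the AIMD mice and 4, 14, 4, 23, 13, 16, 3 and 30 in the Vehicle mice. The last value is that of Vehicle replicate 8, and without that mouse the gene no longer reached the read minimum. Its log2 fold change was −1.75 (SE 0.63, adjusted p = 0.0376 in limma voom).

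**Figure D4:**
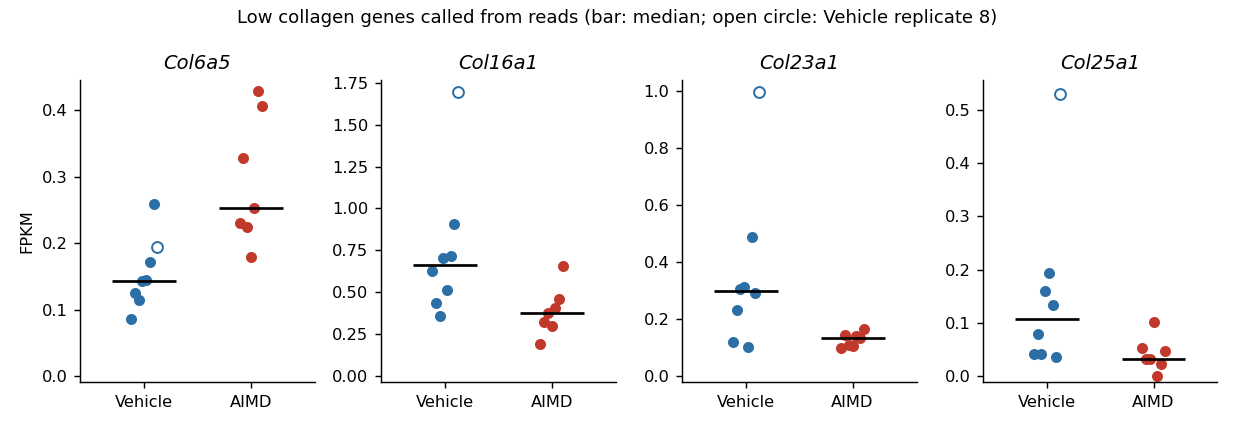
FPKM of Col6a5, Col16a1, Col23a1 and Col25a1 in each mouse, with group medians as bars. Col6a5 lay at 0.179 to 0.429 in AIMD mice and 0.0868 to 0.260 in Vehicle mice, and the open circle of Vehicle replicate 8 is the highest point for the other genes.

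Of the other genes that only the read fit tested, Col27a1, a long fibrillar chain, had a log2 fold change of −0.94 (SE 0.37, adjusted p = 0.0546 in limma voom) and Col5a3, the third type V chain, −0.88 (SE 0.38, adjusted p = 0.0744). Col8a1, Col14a1 and Col4a6 had 0.52, −0.15 and 0.19, with adjusted p of 0.308, 0.822 and 0.730. The 10-read minimum was not reached by Col2a1, Col11a1, Col11a2 and Col24a1 among the fibrillar genes, Col4a3 and Col4a4, and Col6a6, Col7a1, Col9a2, Col9a3, Col13a1, Col17a1, Col19a1, Col20a1, Col22a1, Col26a1 and Col28a1, which entered only a fit without any minimum. Col2a1, the cartilage chain, had 1 read in 1 AIMD mouse and none elsewhere. Col9a2 had 0 to 4 reads per AIMD mouse and 1 to 21 per Vehicle mouse, the highest in Vehicle replicate 8.

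Ratios of chains do not depend on scaling between mice. Each trimer needs its chains together, and 7 ratios of FPKM were compared by an exact permutation test of the mean log2 ratio over every one of the 6435 ways to divide the mice by 7 and 8, two-sided, adjusted over the 7 ratios. The ratio of type III to type I, Col3a1 to Col1a1, was higher in AIMD mice, and the ratio of the type V chains, Col5a1 to Col5a2, was lower. The other 5 ratios did not pass.

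**Figure D5:**
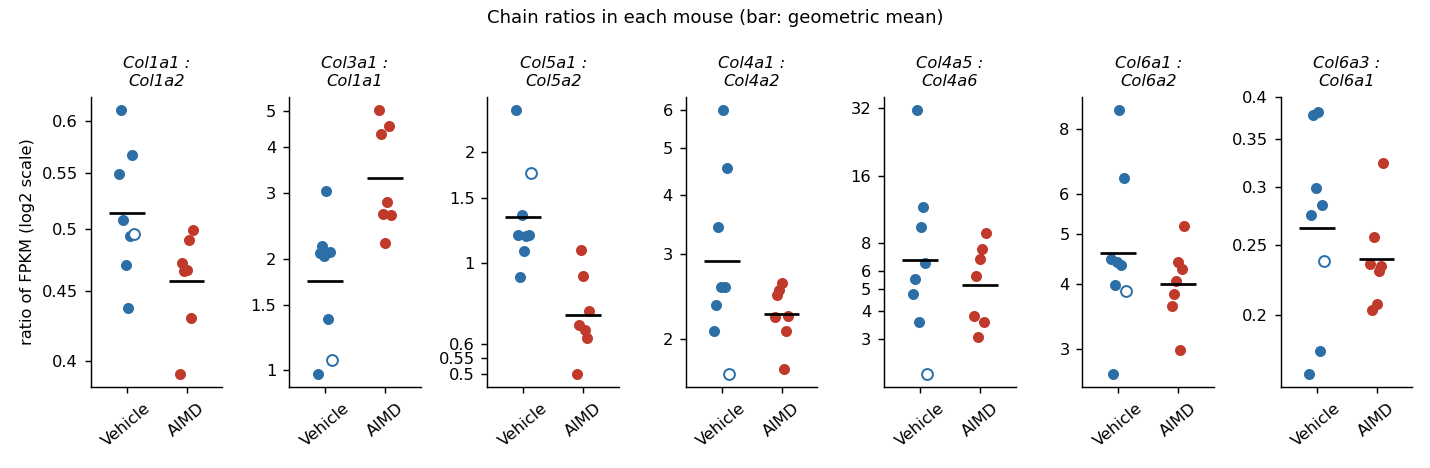
Ratio of FPKM (log2 scale) of 7 chain pairs in each mouse, with geometric means as bars and Vehicle replicate 8 as open circles. Col3a1 to Col1a1 was 2.20 to 5.04 in AIMD mice against 0.974 to 3.05 in Vehicle mice, and Col5a1 to Col5a2 was 0.498 to 1.08 against 0.915 to 2.60.

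The ratio of Col3a1 to Col1a1 was 5.04, 4.33, 2.64, 2.20, 2.84, 4.55 and 2.62 in AIMD replicates 1 to 7. In Vehicle replicates 1 to 8 it was 0.974, 2.07, 2.16, 2.03, 3.05, 1.37, 2.08 and 1.06. Apart from Vehicle replicate 5, every Vehicle mouse lay below every AIMD mouse. The mean log2 ratio was 1.72 ± 0.47 (SD, n = 7) and 0.79 ± 0.57 (SD, n = 8), a 1.90-fold difference (0.93 on the log2 scale, exact permutation p = 0.00497, adjusted p = 0.0174). It was 1.16 among mice with high morning-arm clock levels and 0.75 among the rest. With group medians in place of means the difference was 0.47 and the adjusted p 0.116.

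The ratio of Col5a1 to Col5a2 was 0.498, 0.678, 1.08, 0.918, 0.658, 0.625 and 0.738 in AIMD replicates 1 to 7 and 2.60, 1.19, 0.915, 1.35, 1.08, 1.18, 1.19 and 1.75 in Vehicle replicates 1 to 8. The groups met at their edges, with 5 of 7 AIMD mice below every Vehicle mouse and 6 of 8 Vehicle mice above every AIMD mouse. The mean log2 ratio was −0.47 ± 0.37 (SD, n = 7) and 0.42 ± 0.47 (SD, n = 8), a difference of −0.89 (exact permutation p = 0.00124, adjusted p = 0.0087). It was −0.97 and −0.81 within the clock divisions, and leaving out single mice kept the adjusted p between 0.00612 and 0.028. Exons of genes on the opposite strand overlap 2.50% of the Col5a1 exons.

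The ratio of the type I chains, Col1a1 to Col1a2, was 0.391 to 0.499 in AIMD mice and 0.438 to 0.612 in Vehicle mice. The log2 difference was −0.17 (exact permutation p = 0.0382, adjusted p = 0.0892). Whole reads were obtained with a length of 6563 bases for Col1a1, its annotated exon length, and of 12136 bases for Col1a2, which differs from the annotated one, so the level of a ratio depends on these lengths while a difference between groups does not. The differences for Col4a1 to Col4a2, Col4a5 to Col4a6, Col6a1 to Col6a2 and Col6a3 to Col6a1 were −0.37, −0.37, −0.20 and −0.15 on the log2 scale, with adjusted p of 0.277, 0.488, 0.488 and 0.488. In each of these 4 pairs the AIMD range lay inside the Vehicle range. Col4a6 had as few as 2 reads in a Vehicle mouse.

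Genes that make, handle and bind collagen were counted from lists. The counts of every list are to be read beside the shares over all genes tested in the same limma fit. Those shares were 19.4% called higher and 16.6% called lower. Of 10 tested genes of prolyl and lysyl hydroxylation, P4ha1, a catalytic subunit of the prolyl 4-hydroxylase that stabilizes the triple helix, rose and Plod1, a lysyl hydroxylase, fell, and 8 did not pass. P4ha1 was at 6.66 to 10.8 FPKM in AIMD mice and 3.43 to 6.39 in Vehicle mice, and the groups did not overlap, as for 8.57% of all genes tested, 5.27% higher and 3.3% lower in AIMD (log2 fold change 0.84, adjusted p = 0.000324 in limma). Plod1 was at 0.667 to 1.43 and 1.83 to 2.70, also without overlap (−0.77, adjusted p = 0.000129). Of 8 chaperone and export genes, Ctage5 (0.55) and Sec23a (0.47), which act in the export of large cargo, rose and the collagen chaperone Fkbp10 fell (−0.56, adjusted p = 0.0358).

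Of 4 tested genes of procollagen cleavage, the meprins Mep1a (0.37) and Mep1b (1.28), proteases of the epithelial brush border that can cleave procollagen, rose. The shares over all genes tested were 19.4% higher and 16.6% lower. Without Vehicle replicate 8, 3 genes of this list were called higher, with Mep1a and Mep1b among them. Mep1b was at 143 to 239 FPKM in AIMD mice and 57.4 to 115 in Vehicle mice, without overlap. Of 2 tested cross-linking genes Loxl1 fell (−0.63, adjusted p = 0.027 in limma). Of 10 genes of breakdown and its inhibitors, only Mrc2, an endocytic collagen receptor, fell (−0.73), and it dropped below the FPKM minimum without Vehicle replicate 8. In that fit 3 genes of the list were called higher. The share of all genes called without Vehicle replicate 8 is not given here, so these counts cannot be weighed against it.

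Of 6 tested collagen receptors, the integrin chains Itga2 (0.57) and Itgb1 (0.43) rose and the discoidin domain receptors Ddr1 (−0.35) and Ddr2 (−0.92) fell. Over all genes tested, 19.4% were called higher and 16.6% lower. Itgb1 also pairs with many chains that do not bind collagen. Of 12 fibril partners, Thbs1 rose (1.05, adjusted p = 0.00306 in limma) and Lum, a proteoglycan that spaces fibrils, fell (−0.96, adjusted p = 0.0381, and 0.0593 without Vehicle replicate 8). Without that mouse 3 genes of the list were called higher, Thbs1 among them. The share of all genes called in that fit is not given here, so this count cannot be weighed against it.

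Among 10 tested partners of the basement membrane, Lama3 (1.20), a laminin chain of epithelia, rose, and Lama5 (−0.71) and the perlecan gene Hspg2 (−0.95) fell. For this list and the next, the shares over all genes tested were 19.4% higher and 16.6% lower. Lama3 was at 0.970 to 2.38 FPKM in AIMD mice and 0.101 to 0.685 in Vehicle mice, and Hspg2 at 0.212 to 0.510 and 0.716 to 2.76. Neither gene overlapped between the groups. Of 10 genes of the TGF-beta pathway, a main inducer of collagen transcription, the receptor gene Tgfbr2 rose (0.82), and Ltbp3 (−1.70), Ctgf (−0.95) and the inhibitor Smad7 (−0.97) fell. Ltbp3, which binds latent TGF-beta, was at 0.518 to 1.35 FPKM in AIMD mice and 2.68 to 6.65 in Vehicle mice.

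Markers of cells that make collagen were compared beside these results. Of 7 tested fibroblast markers, Dpt (−0.92) and Fbln1 (−0.75) fell and 5 did not pass, against 36.0% of all genes called, with a median log2 fold change of −0.27 over the list, and −0.04 without Vehicle replicate 8. The summed FPKM of the 10 markers was 13.4 to 31.0 in AIMD mice and 22.1 to 79.2 in Vehicle mice. Of 9 tested smooth muscle markers, Tagln (−1.17) and Synm (−0.96) fell and 7 did not pass, with a median log2 fold change of −0.75 over the list, and −0.51 without Vehicle replicate 8. Among 5 tested enteric neuron and glia markers, Uchl1 (−2.03), S100b (−1.53) and Gfap (−0.92) fell. Uchl1 was still called without Vehicle replicate 8, and S100b and Gfap then no longer reached the FPKM minimum. The summed FPKM of all 10 was 2.60 to 4.80 in AIMD mice and 3.92 to 65.1 in Vehicle mice. The part of these cells in the collagen values was not tested.

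Of 8 tested endothelial markers Cldn5 (−0.63) and Plvap (−0.52) fell, with sums of 12.0 to 19.6 and 14.5 to 24.3. The share called over all genes, 36.0%, with 19.4% higher and 16.6% lower, also stands beside the counts of these lists. Of 10 epithelial markers Krt8 (0.69), Cldn7 (0.48) and Vil1 (0.42) rose and Krt18 (−0.56) fell, with sums of 6448 to 10172 and 5795 to 8122, so the tissue carried the defining markers of gut epithelium in every mouse. Among 10 immune markers Lyz2 (1.24) and Csf1r (0.78) rose, with sums of 126 to 403 and 75.5 to 319. Of 3 mesothelial markers Upk1b rose (0.64), with sums of 3.33 to 9.09 and 1.80 to 10.1. Of 3 adipocyte markers Adipoq fell (−1.44), with sums of 11.6 to 20.3 and 11.2 to 46.1. The 1 tested marker of exocrine pancreas did not pass, with sums of 43.9 to 79.2 and 25.9 to 81.8. Each sum covers the whole list, and 0 of these markers were listed at 0 in every mouse. Of the genes named from the lists, Fkbp10, Mep1a, Loxl1, Ddr1, Lum and Krt8 were called in only 5 to 13 of the 15 fits that left out 1 mouse each. Mrc2, Itga2, Lama5, S100b and Gfap reached the FPKM minimum in only 2 to 8 of those fits and were called in each of these, and the other genes named here were called in all 15.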

How the data were processed

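Stranded poly-A libraries were read as single 50-base reads. The authors used STAR on GRCm38, featureCounts with GENCODE gene models, and deposited a table of FPKM with 1 column per mouse and gene symbols as names, of which 4 rows with repeated symbols were left out; the step from counts to FPKM is not given in the sources used here. Groups and replicate numbers came from the sample labels. The members and gene lists were chosen with earlier results of these data known. Every collagen gene is named, and from each list at most 4 called genes with the largest log2 fold change, a few of which are not reported here.

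Values were scaled by median-of-ratios size factors (1.01 in every mouse, as the deposited values were already scaled) and taken as log2 after adding 0.5. The limma test ran on genes that reached an FPKM of 0.5 in 7 or more mice, in version 3.58.1 with a trend (R 4.3.3). Reads were recovered as whole multiples of what 1 read is worth (tolerance 0.01 read; the exon length in GENCODE M21 served 67.6% of genes). Scripts, with Python 3.11.15, numpy 2.4.6 and pandas 2.3.3, were tested on simulated data. Nothing in the labels pairs same-numbered mice.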

Additional observations from a re-analysis of the deposited data

Results flagged for a closer look

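A mouse stood far from the rest of its group in 22 of 96 groups of values (each collagen gene above 0 and each chain ratio, in each treatment group). The rule would mark about 1 in 20 groups of independent, normally spread values, and these genes vary together. In 17 of the 22 that mouse was Vehicle replicate 8 as the highest of its group. Its FPKM was 16.8 for Col6a1, 6.32 for Col4a2, 4.34 for Col6a2, 3.99 for Col6a3, 2.75 for Col5a1, 2.09 for Col8a2, 1.79 for Col27a1, 1.69 for Col16a1, 1.55 for Col15a1, 1.55 for Col9a2, 0.996 for Col23a1, 0.984 for Col8a1, 0.839 for Col5a3, 0.602 for Col4a6, 0.530 for Col25a1, 0.347 for Col13a1 and 0.215 for Col11a1. None of the chains of types I and III was among them. Vehicle replicate 8 was still the highest of all mice for Col1a1 (6.82 FPKM) and Col1a2 (13.8 FPKM), but not for Col3a1 (7.26 FPKM). This library also had the fewest reads and the highest sums of smooth muscle and of neuron and glia markers, and their part in the collagen values was not tested.

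The other 5 were AIMD replicate 6 for Col6a1 (8.51 FPKM), Vehicle replicate 7 for Col26a1 (0.0747 FPKM), AIMD replicate 3 for Col6a6 (0.00575 FPKM, 1 read), AIMD replicate 1 for Col2a1 (0.00954 FPKM, 1 read) and Vehicle replicate 3 for the ratio of Col4a5 to Col4a6 (31.5, with 2 reads of Col4a6).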

How the results depend on the processing

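The 2 counts of called collagen genes, 1 higher and 0 lower in limma, rested on values near the threshold. The higher count fell to 0 under the exact rank-sum test, quantile normalization, upper-quartile scaling and an adjusted p under 0.01, and ranged from 0 to 2 when single mice were left out. Without a filter on low values it was again 1, but the gene was Col6a5 and not Col3a1, whose adjusted p was 0.0856. The lower count rose to 1 with a clock-gene score (centred or not) in the model, with limma voom on the same genes, with quantile normalization and with upper-quartile scaling (Col16a1 in each), and without a filter (Col20a1), and was 0 to 1 when single mice were left out. The read fit with a 10-read minimum, chosen after seeing the data, gave 2 higher and 3 lower, and 2 and 2 without Vehicle replicate 8. Pseudocounts of 0.1 and 1, a minimum FPKM of 1 and no further size factors kept both counts. The cause of these changes was not tested.

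The log2 difference of the Col3a1 to Col1a1 ratio fell to 0.47 (adjusted p = 0.116, exact permutation) with medians in place of means. That of Col1a1 to Col1a2 passed when Vehicle replicate 5 was left out, with a range of −0.20 to −0.13 over single mice left out. Replicate numbers were not taken to pair the mice, since the labels do not say so and the correlation of deviations between same-numbered mice was −0.35 to 0.43, although mice 1 to 3 and 5 to 7 of both groups fell on the same side of the clock division. With the replicate block, which drops Vehicle replicate 8, the log2 differences were 0.83 for Col3a1 to Col1a1 and −0.83 for Col5a1 to Col5a2. The adjusted p was 0.109 for both (exact permutation). This block test only flips the signs of differences between same-numbered mice. With so few sign patterns an adjusted p under 0.05 was nearly out of reach, so the block test cannot decide on either ratio. In the limma fit with the block, 1 gene was still called higher and 0 lower.

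Small fold changes that were not called changed sign. The block and, equally, leaving out Vehicle replicate 8 gave 0.094 for Col6a2, 0.051 for Col8a2, 0.12 for Col1a2, 0.033 for Col12a1 and 0.059 for Col6a4, and the read fit without that mouse gave 0.086, 0.10, 0.13, 0.090 and 0.093. Col6a4 was 0.027 by both read fits and 0.0085 with quantile normalization, and Col15a1 was −0.0022 with upper-quartile scaling. Over single mice left out, the values ranged from −0.23 to 0.094 for Col6a2, −0.041 to 0.10 for Col15a1, −0.17 to 0.051 for Col8a2, −0.14 to 0.12 for Col1a2, −0.014 to 0.29 for Col4a2, −0.16 to 0.044 for Col12a1 and −0.067 to 0.059 for Col6a4. Of 1195 values of the called genes taken from the lists under alternatives, 90 missed the threshold and none changed direction; Lum, Krt8 and Mep1a were among those that missed it most often.

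Mice were few, cages are not in the labels, and the depth of Vehicle replicate 8 limits the genes with few reads most.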

Other observations

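Within both treatments most collagen genes were higher in mice with low morning-arm clock levels than in mice with high ones. In the Vehicle group 17 of the 17 tested genes had a higher mean log2 level in replicates 5 to 8 than in replicates 1 to 4, with a median difference of 0.45, and without Vehicle replicate 8 it was 13 of 17 with a median of 0.23. In the AIMD group it was 15 of 17, with a median of 0.21 between replicates 4 to 7 and replicates 1 to 3. Among replicates 4 to 7, AIMD replicates 6 and 7 each led the group in 8 of the 17 genes. AIMD replicate 4 was the lowest of the group in 6. The median over all genes tested was −0.03 in each group. These mice were divided by a measured score, the labels give no time of sacrifice, and the difference was not tested. Col3a1 ranged from 6.10 to 8.66 FPKM in Vehicle replicates 5 to 8 and from 2.34 to 6.96 in Vehicle replicates 1 to 4.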
